A study of Mus musculus with 468 samples.

Results

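A set of 8 transcripts of the p53 pathway and of cell cycle arrest were followed through the adipose tissue of Diversity Outbred mice, a stock in which the alleles of several inbred founder strains are shuffled so that nearly every animal has its own genotype. The rows were chosen by gene symbol in the count table: *Cdkn1a*, *Cdkn2b*, *Cdkn2c*, *Mdm2*, *Ccng1*, *Gdf15*, *Trp53inp1* and *Sesn2*. All 8 were among the 23180 genes of the table, and all 8 passed the filter on low counts (10 or more in 50% or more of the libraries), which kept 18380 genes. The mice formed 1 group, HFHS: all were fed a high-fat, high-sugar diet, labelled with 45 percent fat, and each mouse gave 1 library of the visceral fat pad next to the gonads. Mice of both sexes entered the study, but sex, age, generation and body weight are not in the labels of the samples. Age, generation and body weight were not analysed here, and sex only through the counts of Y chromosome genes. With no second group, the question put to the data was how these transcripts varied over mice, together and with *Adgre1*, *Lep* and *Mki67*. The labels name no replicate libraries, so the spread over mice holds both biological differences and assay error.

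The transcription factor p53 is stabilised by DNA damage and other stress and switches on genes that halt the cell cycle, repair DNA, start apoptosis or limit p53 itself. Lasting arrest of this kind, senescence, also draws on the INK4 proteins, which block the cyclin-dependent kinases that push a cell into S phase, and is often accompanied by secreted inflammatory factors. Obese adipose tissue is a known site of such cells and of macrophages, for which *Adgre1*, the gene of the F4/80 antigen, is a marker. *Lep* encodes leptin, the hormone that adipocytes secrete as fat mass grows, and *Mki67* encodes a protein of dividing cells.

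Promoter sequences were taken from RefSeq (GRCm38.p6) as windows from 250 bases before to 50 bases after an annotated start. Windows were found for 7 of the 8 genes, and *Trp53inp1* had none. The stretches below are those that hold a match to the p53 half-site, the decamer that p53 binds in pairs, searched on both strands and allowing overlaps. They are shown for the members that hold a match and for *Exoc4* and *Aen*, whose transcripts were the most similar to *Ccng1* over mice. Each runs 5′ to 3′ on the strand of the gene, with the match in capitals.
Ccng1, chr11:40755437-40755496, minus strand: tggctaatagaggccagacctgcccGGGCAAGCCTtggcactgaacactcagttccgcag
Exoc4, chr6:33248900-33248959, plus strand: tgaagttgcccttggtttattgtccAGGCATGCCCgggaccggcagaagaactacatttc
Aen, chr7:78895912-78895971, plus strand: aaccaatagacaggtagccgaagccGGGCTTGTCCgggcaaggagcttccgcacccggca
Mdm2, chr10:117710910-117710969, minus strand: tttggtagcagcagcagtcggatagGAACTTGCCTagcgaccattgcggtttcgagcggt
Cdkn1a, chr17:29090881-29090962, plus strand: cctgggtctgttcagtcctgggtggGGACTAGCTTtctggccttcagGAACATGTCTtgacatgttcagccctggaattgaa

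A half-site match stood in 3 of the 7 members with a window, *Cdkn1a*, *Mdm2* and *Ccng1*, against 8.36% of all 32851 windows and 9.55% of the 27025 genes with one. *Cdkn1a* held 2 matches, the second of them 51 bases before the annotated start, and the match in *Aen* began 11 bases after it. Among the other p53 targets listed for this work, 6 of the 19 with a window held a match (*Aen*, *Bax*, *Ei24*, *Polk*, *Ppm1d* and *Sesn1*), or 31.6%. Other motifs were searched in the same windows. The GC box GGGCGG stood in 5 of the 7 members and in 35.7% of all windows, and the E-box CACGTG in 2 (*Cdkn2c* and *Gdf15*) and in 7.15%. The AP-1 site TGANTCA was in none of the 7 windows, against 7.81% of all windows. A match describes letters only, and the decamer is short enough to stand in many windows that p53 is not known to bind.

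Total expected counts per library ranged from 35298813 to 137760410, with a median of 82043357, so that counting error was small for every member except *Gdf15*. At the median count it came to 0.765% of the value for *Ccng1* (17080 counts), 3.68% for *Cdkn2b* (739 counts) and 12% for *Gdf15* (69 counts). The sum of 4 Y chromosome genes was exactly 0 in 48.5% of the libraries and above 0 in the other 51.5%. These clusters, defined from the data, are used below as a check on each relation. In bulk tissue a lower value can mean fewer cells of a type or less RNA per cell, and the data cannot tell these apart.

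*Cdkn1a* (ENSMUSG00000023067, chromosome 17, 29090976 to 29100727) encodes p21, the inhibitor of cyclin-dependent kinases through which p53 halts the cell cycle. Its lowest value was 24.3 CPM (counts scaled to the effective library size) in mouse DO283, its median 115.6 CPM and its highest 297.09 CPM in mouse DO034. Between the 5th and the 95th percentile of mice it spanned 3.13-fold. The annotated gene AC167363.2 lies on the opposite strand of the same region and had no row in the count table.

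The INK4 inhibitors differed in level and in spread. *Cdkn2b* (ENSMUSG00000073802, chromosome 4, 89306299 to 89311039), which encodes p15, ranged from 2.87 CPM (DO069) through a median of 8.922 CPM to 34.907 CPM (DO104), and spanned 4.64-fold between the 5th and the 95th percentile. *Cdkn2c* (ENSMUSG00000028551, chromosome 4, 109660876 to 109667189), which encodes p18, ranged from 30.9 CPM (DO132) through 77.34 CPM to 184.49 CPM (DO549) and spanned 2.65-fold.

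Both canonical feedback genes of the pathway were measured precisely. *Mdm2* (ENSMUSG00000020184, chromosome 10, 117688875 to 117710758), the ubiquitin ligase that marks p53 for destruction and is itself a p53 target, was the steadiest member. It ran from 34 CPM (DO293) through 44.5 CPM to 75.008 CPM (DO180), 1.59-fold between the 5th and the 95th percentile. *Ccng1* (ENSMUSG00000020326, chromosome 11, 40748552 to 40755311), the gene of cyclin G1 and a p53 target in many tissues, ran from 92.3 CPM (DO408) through 208.6 CPM to 537.12 CPM (DO405). The second highest mouse for *Ccng1*, DO530 with 502.4 CPM, was also the second highest for *Mdm2* with 70.26 CPM.

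*Gdf15*, *Trp53inp1* and *Sesn2* are known to answer to several stress pathways. *Gdf15* (ENSMUSG00000038508, chromosome 8, 70629393 to 70632456), a secreted factor of the TGF-beta family, was at 0 counts in 2 libraries, where 3 counts would have given at most 0.0432 CPM. It had a median of 0.8038 CPM and a highest value of 8.8256 CPM in mouse DO212, and 14 libraries held under 10 counts. *Trp53inp1* (ENSMUSG00000028211, chromosome 4, 11156431 to 11174379), a stress-induced partner of p53 with a part in autophagy, ran from 20.7 CPM (DO281) through 46.95 CPM to 1234.1 CPM in mouse DO349, 26.3 times the median, and the next mouse, DO060, had 193.1 CPM. *Sesn2* (ENSMUSG00000028893, chromosome 4, 132492032 to 132510501), the gene of sestrin 2, a leucine sensor that restrains mTORC1, ran from 16.2 CPM (DO169) through 43.65 CPM to 140.48 CPM, again in DO349. *Sesn2* overlaps Gm12981 on the same strand, which had a median of 0.227 CPM. The plot of abundance by library shows these ranges.

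**Figure D1:**
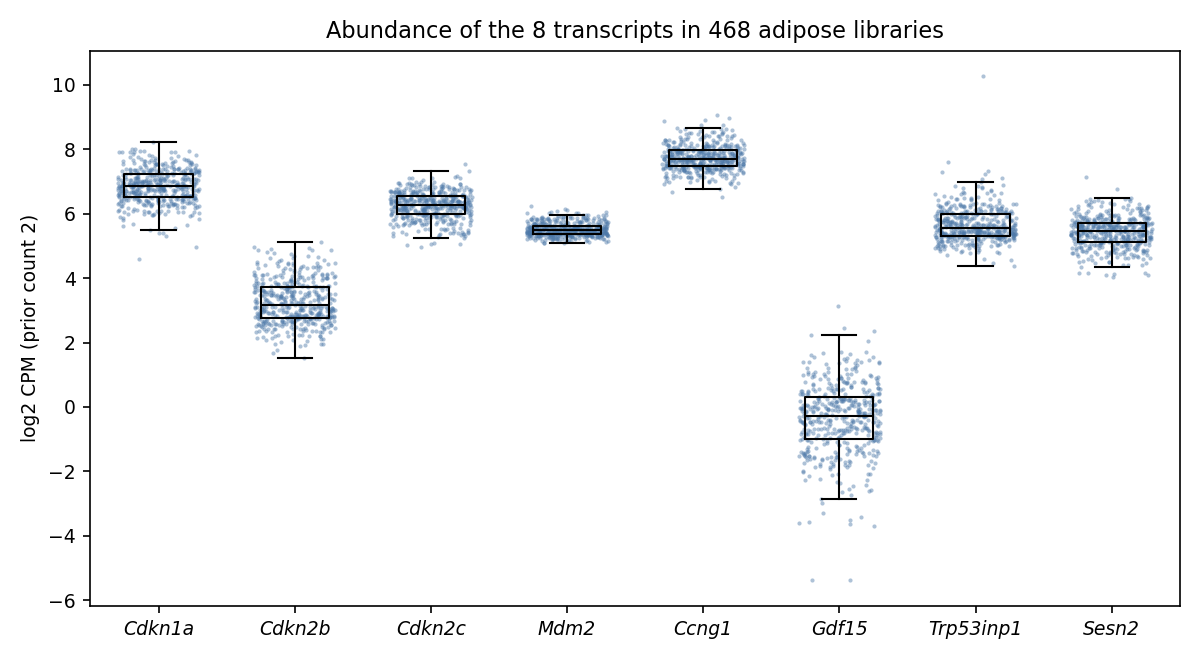
Log2 CPM (y axis, prior count of 2) of each of the 8 transcripts (x axis) in all libraries. Each point is 1 library, the line in a box is the median, the box spans the quartiles and whiskers reach at most 1.5 times the box. Mdm2 has the narrowest box and Gdf15 the widest, and 1 Trp53inp1 library, DO349, stands far above the rest at 1234.1 CPM.

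To compare levels of different genes, CPM was scaled to the length of exons. That length joins the exons of all annotated transcripts of a gene (9 for *Mdm2*, 1 for *Cdkn2b*), whichever are in use, so the comparison is rough. The median was 59.4 CPM per kb for *Ccng1*, 32.5 for *Cdkn1a*, 28.8 for *Cdkn2c* and 12.6 for *Sesn2*. It was 8.75 for *Mdm2*, 7.25 for *Trp53inp1*, 6.42 for *Cdkn2b* and 0.434 for *Gdf15*. Of the neighbours in this order, *Cdkn2b* exceeded *Gdf15* in every library, *Cdkn2c* exceeded *Sesn2* in 97.4% of them and *Ccng1* exceeded *Cdkn1a* in 95.5%. The other neighbours changed places often: *Sesn2* was above *Mdm2* in 82.5% of libraries, *Mdm2* above *Trp53inp1* in 70.1%, *Cdkn1a* above *Cdkn2c* in 62.6% and *Trp53inp1* above *Cdkn2b* in 56.2%. The middle of the order was thus not resolved against the spread between mice.

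Spread was expressed as the biological coefficient of variation (BCV), the relative spread left once counting error is taken off. It was 0.144 for *Mdm2*, lower than in all but 17.8% of the genes tested. It was 0.273 for *Ccng1*, 0.285 for *Cdkn2c*, 0.321 for *Sesn2*, 0.353 for *Cdkn1a*, 0.443 for *Trp53inp1*, 0.47 for *Cdkn2b* and 0.713 for *Gdf15*. Against genes whose mean lay within 1.5 times of their own, *Trp53inp1* varied more than 92.7% of 2646 genes and *Mdm2* more than 41.6% of 2898. For the others the share was 83.9% for *Cdkn2b*, 83.1% for *Sesn2*, 82.7% for *Cdkn1a* and 78% for *Cdkn2c*. It was 66.1% for *Ccng1* and 63.8% for *Gdf15*. The BCV of *Trp53inp1* includes DO349, at 1234.1 CPM against 193.1 CPM in the next library. Between the 5th and the 95th percentile *Trp53inp1* spanned 2.92-fold, much as *Sesn2* did (2.93-fold).

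Single libraries carried several of the extremes. In DO349, *Trp53inp1* and *Sesn2* were the highest of all libraries, *Cdkn1a* was 241.5 CPM, above 97.9% of libraries, and *Cdkn2c* was 33.79 CPM, above only 4. The same library had the lowest *Lep* of all, 0.7162 CPM against a median of 1128 CPM, while its summed adipocyte markers (12 of 12 genes in the table) were 41170 CPM, above 91.7% of libraries. Other genes at their highest there, named after their values were seen, were *Irf4* with 2447 CPM and *Nr4a3* with 651.3 CPM. *Mdm2* (44.12 CPM) and *Ccng1* (186.7 CPM) in DO349 stood near their medians. In DO283, which had the lowest *Cdkn1a*, the seminal vesicle gene *Svs5*, also named after its value was seen, took 210500 CPM. The summed adipocyte markers of DO283 were the lowest of all at 13150 CPM. DO405, the library with the lowest TMM factor (0.5782), was in the top 5% of mice for 4 of the 8 members, and no other library was in the top 5% for more than 3. In DO212, where *Gdf15* peaked, the summed macrophage markers were 5475 CPM, above 98.3% of libraries. Whether these features of the libraries gave the extremes was not tested.

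The relation of each member to *Adgre1*, *Lep* and *Mki67* was tested as a slope, the change in log2 abundance per doubling of the reference transcript, by the quasi-likelihood test of edgeR over all genes. Most genes of this tissue moved with the references: 77.4% of genes passed an adjusted p of 0.05 for *Adgre1*, 79.2% for *Lep* and 78.3% for *Mki67*. Of the 24 relations, 21 passed, 7 for each reference, which is close to these shares, so the number of calls says little and the size and direction of the slopes are what differed. With *Adgre1*, 4 members rose and 3 fell, where 34.4% of all genes rose and 43% fell. With *Lep*, 5 rose and 2 fell (37.9% and 41.3% of all genes). With *Mki67*, 4 rose and 3 fell (38.8% and 39.5%). Scaling by total counts in place of TMM moved these splits: 55.9% of all genes then rose and 22.2% fell with *Adgre1*, 53.4% and 25.1% with *Lep*, and 58.6% and 21.6% with *Mki67*, while 5, 6 and 5 members rose and 1 fell with each. The references themselves ran together over mice, with r = 0.591 for *Adgre1* and *Lep*, 0.744 for *Adgre1* and *Mki67* and 0.678 for *Lep* and *Mki67*. From the 5th to the 95th percentile *Adgre1* spanned 2.93 doublings, *Lep* 4.92 and *Mki67* 3.74.

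*Cdkn2b* followed all 3 references closely. Per doubling it rose by 0.246 ± 0.012 (SE) on the log2 scale with *Lep* (edgeR adjusted p = 6.84e-64), by 0.456 ± 0.028 with *Adgre1* (adjusted p = 9.06e-46) and by 0.374 ± 0.021 with *Mki67* (adjusted p = 1.93e-53). Its correlation with *Lep* was r = 0.699 and rho = 0.802 (permutation p = 1e-05 each, the smallest the 100000 resamples can give), above that of 97.6% of genes. Over the 5th to 95th percentile of *Lep* the slope corresponded to 2.32-fold more *Cdkn2b*.

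*Mdm2* rose with all 3 as well, with small slopes over its narrow range. The slope was 0.139 ± 0.0082 with *Adgre1* (adjusted p = 7.23e-50, edgeR), 0.063 ± 0.0046 with *Lep* (5.61e-35) and 0.096 ± 0.0069 with *Mki67* (1.34e-36). Its correlation with *Adgre1* (r = 0.611, rho = 0.555, permutation p = 1e-05 each) was above that of 93.6% of genes, although the fitted change over the range of *Adgre1* was only 1.33-fold. *Ccng1*, the other feedback gene, was closest to *Lep*, with a slope of 0.126 ± 0.0086 (edgeR adjusted p = 8.85e-40, r = 0.559, rho = 0.617), and less close to *Adgre1* (r = 0.357) and *Mki67* (r = 0.394). *Gdf15* was closest to *Adgre1*, with a slope of 0.519 ± 0.045 (edgeR adjusted p = 6.27e-27, r = 0.49, rho = 0.475), which corresponds to 2.87-fold over the range of *Adgre1*.

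*Cdkn1a* was nearly unrelated to *Adgre1* and *Mki67* over all libraries. Its r was 0.0542 with *Adgre1* (permutation p = 0.241, edgeR adjusted p = 0.723) and 0.0321 with *Mki67* (permutation p = 0.486, edgeR adjusted p = 0.998). With *Lep* it rose by 0.0404 ± 0.013 per doubling (edgeR adjusted p = 0.00278, r = 0.189, rho = 0.226). Within the libraries with Y chromosome counts it rose with *Adgre1* (slope 0.0821 ± 0.032, edgeR adjusted p = 0.0166, r = 0.186, permutation p = 0.00361). Without Y counts the slope was 0.0653 ± 0.059 (edgeR adjusted p = 0.336, r = 0.0712), and these slopes did not differ at this threshold (adjusted p of the difference 0.85). With total counts the slope of *Cdkn1a* was 0.111 on *Adgre1* (edgeR adjusted p = 5.23e-05) and 0.0658 on *Mki67* (0.00173), and with Xist and the Y genes in the model it was 0.075 on *Adgre1* (0.0203). *Cdkn1a* and *Cdkn2b*, both inhibitors of cyclin-dependent kinases, thus stood far apart in their relation to the same references.

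The other 3 members had negative slopes. *Cdkn2c* fell by 0.162 on the log2 scale per doubling of *Adgre1* (SE 0.021, edgeR adjusted p = 9.17e-14, r = -0.344, rho = -0.305) and was not related to *Lep* at this threshold (slope -0.0186 ± 0.011, edgeR adjusted p = 0.128). *Trp53inp1* fell with *Lep* (slope -0.169 ± 0.011, edgeR adjusted p = 8.22e-44, r = -0.348, rho = -0.197), and over the range of *Lep* the fitted ratio was 0.562. Library DO349, with the lowest *Lep* and the highest *Trp53inp1*, weighed on these slopes: without it the slope of *Trp53inp1* was -0.0998 on *Lep* (edgeR adjusted p = 1.72e-13) and -0.0912 on *Mki67* (9.49e-06), against -0.185 on *Mki67* with it. The correlation with *Lep* without the 2 libraries farthest from the median of *Lep* was -0.263 (permutation p = 1e-05). *Sesn2* had slopes of -0.0788 ± 0.025 on *Adgre1* (edgeR adjusted p = 0.0025) and -0.0322 ± 0.012 on *Lep* (0.00938), but its rank correlations with them were -0.061 and -0.0205 (permutation p = 0.188 and 0.657), so its pooled relations were weak. Without DO349 the slope of *Sesn2* on *Lep* was -0.0146 (edgeR adjusted p = 0.292), and that of *Cdkn2c* on *Lep* was -0.026 (0.0329). With total counts in place of TMM scaling, the slope of *Sesn2* on *Adgre1* was 0.00683 (edgeR adjusted p = 0.821), that of *Trp53inp1* on *Adgre1* -0.0428 (0.245) and that of *Cdkn2c* on *Lep* 0.0235 (0.0378). Leaving out the 2 libraries farthest on the x axis moved no r of the 24 by more than 0.085.

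**Figure D2:**
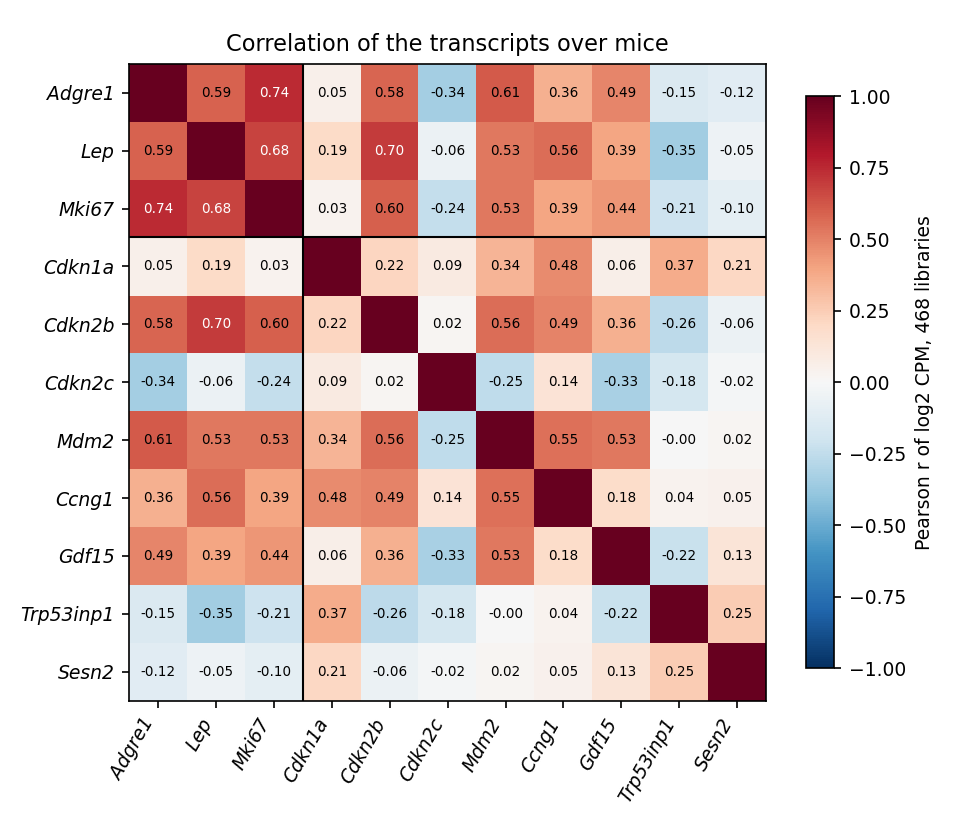
Pearson r of log2 CPM over all libraries for the 3 reference transcripts and the 8 members, with the value in each cell and red for positive and blue for negative r. Black lines part the references from the members. Cdkn2b, Mdm2, Ccng1 and Gdf15 are red against all 3 references and Trp53inp1 is blue. Cdkn2c is blue against Adgre1 and Mki67 but near white against Lep (r = -0.06). Cdkn1a and Sesn2 are pale.

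When *Adgre1*, *Lep* and *Mki67* entered 1 model together, each slope was read at fixed values of the other references, and 12 of the 24 relations passed. Among all genes 56.9% passed for *Adgre1*, 64.3% for *Lep* and 34.2% for *Mki67* in this model. The members then separated by reference. *Ccng1* kept its slope on *Lep* (0.116 ± 0.012, edgeR adjusted p = 3.17e-19) and had 0.0238 ± 0.026 on *Adgre1* (adjusted p = 0.443). *Mdm2* kept the larger part of its slope on *Adgre1* (0.0992 ± 0.012, edgeR adjusted p = 9.1e-14), with 0.0281 ± 0.0059 on *Lep* (7.29e-06). *Gdf15* passed on *Adgre1* alone (0.389 ± 0.072, edgeR adjusted p = 4.45e-07; on *Lep* 0.0217 ± 0.037, adjusted p = 0.62). *Cdkn2b* passed on all 3, with 0.164 ± 0.037 on *Adgre1*, 0.167 ± 0.017 on *Lep* and 0.0879 ± 0.033 on *Mki67* (edgeR adjusted p = 5.26e-05, 8.14e-21 and 0.029). It was the only member that passed on *Mki67* in this model.

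*Cdkn2c* turned with the other references held fixed: it fell with *Adgre1* (slope -0.202 ± 0.031, edgeR adjusted p = 7.02e-10) and rose with *Lep* (0.0566 ± 0.015, adjusted p = 0.000331). *Trp53inp1* did the reverse, falling with *Lep* (-0.194 ± 0.015, edgeR adjusted p = 1.1e-30) and rising with *Adgre1* (0.11 ± 0.041, adjusted p = 0.0156), the opposite of its sign on *Adgre1* alone. This model was not fitted without DO349, the library with the highest *Trp53inp1* and the lowest *Lep*. In a least-squares fit on log2 CPM, leaving out *Adgre1* cost 0.381% of the variance of *Trp53inp1*, and leaving out *Lep* cost 8.18%. By least squares on log2 CPM, the 3 references together accounted for 53.5% of the variance of *Cdkn2b*, 41.7% of *Mdm2*, 31.4% of *Ccng1*, 26% of *Gdf15*, 15.3% of *Cdkn2c*, 12.6% of *Trp53inp1*, 5.27% of *Cdkn1a* and 1.46% of *Sesn2*.

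**Figure D3:**
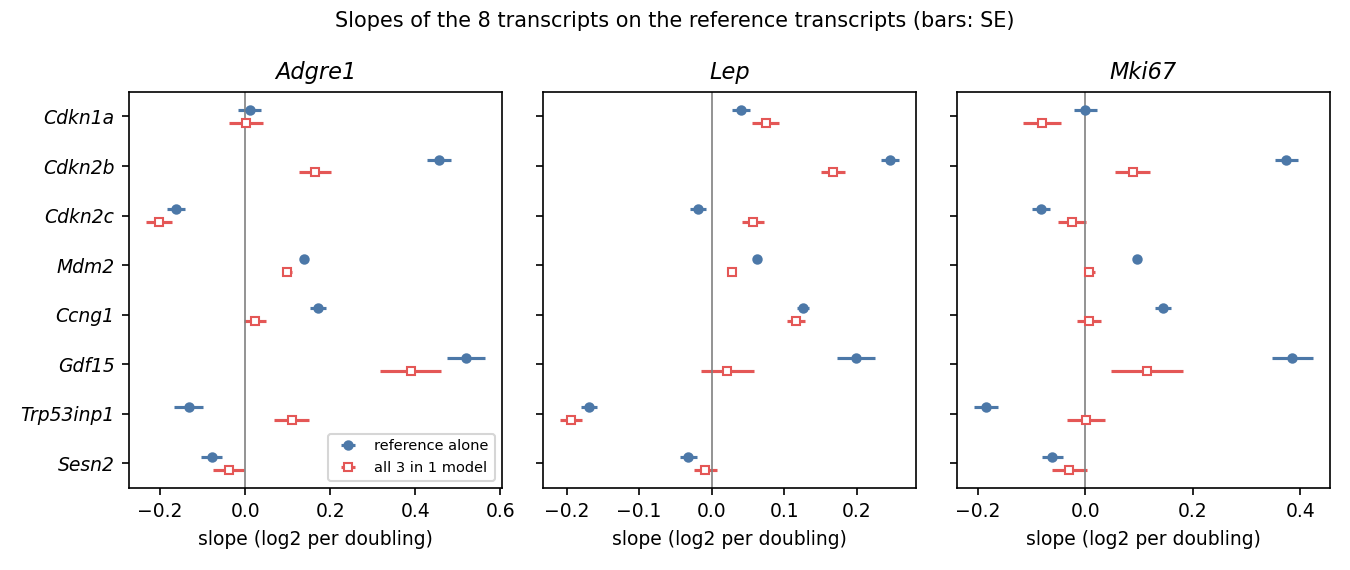
Slope of each member (log2 change per doubling, x axes, with bars for 1 SE) on Adgre1, Lep and Mki67, with the reference alone (blue circles) and with all 3 in 1 model (open red squares). In the joint model Ccng1 stays at 0.116 on Lep and lies near 0 on Adgre1, while Gdf15 stays at 0.389 on Adgre1.

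The relations were then taken within the libraries with and within those without Y chromosome counts, since the clusters differed in the references. The median of *Lep* was 1991 CPM with and 506.3 CPM without Y counts, that of *Adgre1* 62.41 and 38.07 CPM, and that of *Cdkn2b* 12.25 and 7.063 CPM, with overlapping ranges in each case. The slopes differed between the clusters, by a test of the difference in edgeR, in 11 of the 24 relations, and in 10 without DO349, which has no Y counts (*Trp53inp1* on *Lep* then had a difference of -0.0283 ± 0.03, edgeR adjusted p = 0.46). Among all genes such a difference passed in 50.8% for *Adgre1*, 43.7% for *Lep* and 43.8% for *Mki67*, so the members were not unusual in this. *Cdkn2b* rose by 0.36 ± 0.021 per doubling of *Lep* with Y counts (r = 0.745) and by 0.134 ± 0.016 without (r = 0.485), a difference of 0.225 ± 0.026 (edgeR adjusted p = 8.48e-15). *Ccng1* rose by 0.232 ± 0.017 per doubling of *Lep* with Y counts and by 0.108 ± 0.01 without (edgeR adjusted p of the difference 3.41e-09). *Mdm2* had r = 0.662 with *Adgre1* with Y counts and 0.256 without, and its slopes of 0.145 ± 0.011 and 0.0695 ± 0.016 also differed (edgeR adjusted p = 0.000426).

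*Sesn2* was related to the references in 1 of the clusters. With Y counts its r was -0.384 with *Adgre1*, -0.353 with *Lep* and -0.377 with *Mki67* (permutation p = 1e-05 each). Without Y counts the same values were 0.00806, -0.00717 and 0.0011 (permutation p = 0.903, 0.914 and 0.987). The differences in slope were -0.225 ± 0.055, -0.121 ± 0.027 and -0.163 ± 0.039 (edgeR adjusted p = 0.000244, 4.79e-05 and 0.000179). The pooled r of *Sesn2* thus joined libraries with a negative relation and libraries in which none was detectable. *Cdkn1a* rose with *Lep* in both clusters, with r = 0.327 and 0.265 (permutation p = 1e-05 and 4e-05), both above the pooled 0.189.

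**Figure D4:**
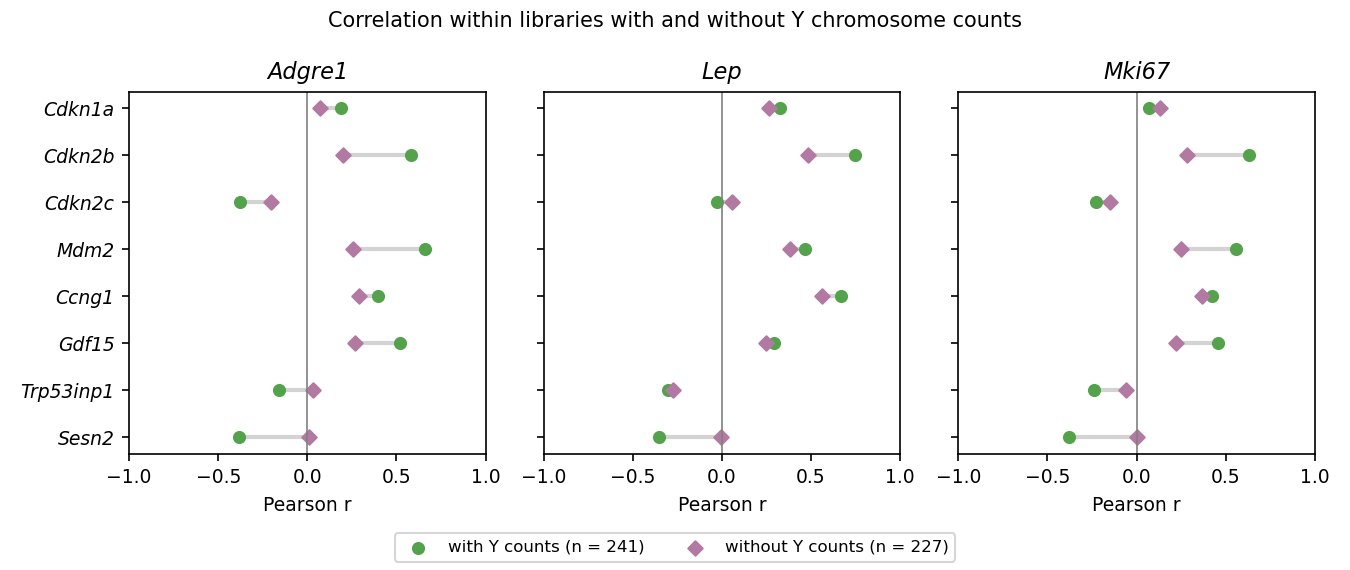
Pearson r of each member with Adgre1, Lep and Mki67 (x axes, from -1 to 1) within libraries with Y chromosome counts (green circles) and without (purple diamonds). For Sesn2 the circles lie near -0.38, -0.35 and -0.38 and the diamonds at about 0, while Cdkn2b, Mdm2 and Ccng1 stay to the right of 0 in both.

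Of the 28 pairs of members, 14 had a positive and 5 a negative r at a permutation p under 0.05. In the edgeR fits on each member in turn, 18 pairs passed in both directions of fitting, 13 positive and 5 negative. The share of all genes that passed in these fits was 42.2% for *Cdkn1a*, 76.7% for *Cdkn2b*, 63.4% for *Cdkn2c*, 73.3% for *Mdm2*, 70.3% for *Ccng1*, 66.5% for *Gdf15*, 52.8% for *Trp53inp1* and 38.5% for *Sesn2*, so a pass was common here too. The median r of the 28 pairs was 0.11 and the first principal component of the 8 members held 32.3% of their variance, with weights of 0.54 for *Mdm2*, 0.468 for *Ccng1*, 0.467 for *Cdkn2b*, 0.379 for *Gdf15* and 0.334 for *Cdkn1a*, and near 0 for the others. The 8 transcripts did not vary as 1 block.

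The strongest pairs joined *Mdm2* with others: r = 0.559 with *Cdkn2b*, 0.547 with *Ccng1* and 0.526 with *Gdf15* (rho = 0.571, 0.512 and 0.522, permutation p = 1e-05 each, larger edgeR adjusted p 9.21e-39, 3e-36 and 5.07e-34). *Cdkn1a*, though far from *Cdkn2b* in its relation to the references, was near *Ccng1* (r = 0.475, rho = 0.455, adjusted p = 3.36e-23), *Trp53inp1* (r = 0.371) and *Mdm2* (r = 0.34). *Cdkn2b* and *Ccng1* had r = 0.494. Negative pairs were *Cdkn2c* with *Gdf15* (r = -0.327, rho = -0.353, larger edgeR adjusted p = 8.76e-13), *Cdkn2b* with *Trp53inp1* (r = -0.262), *Cdkn2c* with *Mdm2* (r = -0.251), *Gdf15* with *Trp53inp1* (r = -0.223) and *Cdkn2c* with *Trp53inp1* (r = -0.176). *Cdkn2b* and *Cdkn2c*, the INK4 genes, had r = 0.0184 (permutation p = 0.692).

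With the 3 references regressed out of each member, the pairs among *Cdkn1a*, *Mdm2* and *Ccng1* stayed positive. *Cdkn1a* and *Ccng1* kept r = 0.462, *Mdm2* and *Ccng1* 0.379, and *Cdkn1a* and *Mdm2* 0.362 (permutation p = 1e-05 each). *Cdkn1a* and *Trp53inp1* had 0.484, against 0.371 before. *Mdm2* and *Gdf15*, of which *Gdf15* held no half-site match, had 0.302, against 0.526 before. Over all pairs of members the median absolute r was 0.212 before and 0.204 after. Whether a half-site bears on these pairs was not tested. The r of *Cdkn2b* shrank from 0.559 to 0.215 with *Mdm2*, from 0.494 to 0.17 with *Ccng1* and from 0.358 to 0.023 with *Gdf15*. With *Cdkn2c*, the other INK4 gene, it grew from 0.0184 to 0.228 (permutation p = 1e-05). *Trp53inp1* gained relations that the pooled values lacked, with r = 0.298 to *Ccng1* (pooled 0.0387) and 0.215 to *Mdm2* (pooled -0.00407).

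Within the Y count clusters, *Cdkn1a* and *Ccng1* had r = 0.555 with and 0.453 without Y counts, *Mdm2* and *Ccng1* 0.53 and 0.629, and *Cdkn1a* and *Mdm2* 0.4 and 0.499. These 3 pairs also stayed positive in all 10 blocks of consecutive library or mouse numbers, the lowest r being 0.349, 0.428 and 0.212. An r of opposite sign in the clusters stood in 4 pairs, among them *Sesn2* with *Mdm2*, with *Gdf15* and with *Cdkn2c*. *Sesn2* and *Mdm2* had r = -0.265 with and 0.22 without Y counts (larger edgeR adjusted p of the difference 1.79e-06), and *Sesn2* and *Gdf15* -0.21 and 0.31 (2.93e-06). *Sesn2* and *Cdkn2c* turned the other way, with 0.153 and -0.171 (0.00665). In all, 5 pairs differed between the clusters in both fits, and 4 without DO349, each of them with *Sesn2*. Among all genes the difference passed in 6.2% for *Cdkn1a* as the covariate, 24.3% for *Cdkn2b*, 13.9% for *Cdkn2c*, 33.5% for *Mdm2*, 19.2% for *Ccng1*, 28.2% for *Gdf15*, 4.81% for *Trp53inp1* and 34.6% for *Sesn2*.

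For each member, the genes whose log2 CPM was most like it over all libraries were sought among 9508 genes, those averaging 10 CPM or more. The likeness was greatest for *Ccng1*. *Exoc4* (chromosome 6, 33249085 to 33973979), a subunit of the exocyst that tethers vesicles to the plasma membrane, had r = 0.831 with it (rho = 0.825), and *Aen*, a nuclease of apoptosis and a known p53 target, had 0.79. Both values held within the libraries with (0.878 and 0.844) and without Y counts (0.765 and 0.739) and with the references regressed out (0.748 and 0.677). The third was *Gmfb* with 0.665. The half-site matches of *Exoc4*, *Aen* and *Ccng1* are printed above. *Exoc4* and *Aen* had r = 0.695 with each other, and *Exoc4* had 0.709 with *Eda2r*, a receptor gene and p53 target. *Aen* was also the gene most like *Cdkn1a* (r = 0.482), ahead of *Lrrc8a* (0.472) and *Nfil3* (0.463).

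Other members had neighbours of another kind. *Cdkn2b* was most like *Atp6v0a1* (r = 0.777), a subunit of the proton pump of lysosomes, *Map7d1* (0.773) and *Trp53inp2* (0.768), and least like *Fam13a* (-0.77). *Cdkn2c* was most like *Plin1* (r = 0.641), the perilipin that coats the lipid droplet of adipocytes. It was followed by 9630013D21Rik (0.639), which lies 3022 bases from *Cdkn2c* on the same strand, and *Abcd2* (0.606). *Mdm2* was most like *Tpcn2* (0.713), *Adam8* (0.709) and *Arhgap25* (0.706), of which the last had r = 0.9 with *Adgre1*, and least like *Cfd* (-0.712), the adipocyte product adipsin.

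*Gdf15* was most like *Wdr1* (0.613), *Ywhah* (0.611) and *Atf3* (0.61), a transcription factor of the stress response, and again least like *Cfd* (-0.556). *Wdr1*, *Ywhah* and *Atf3* had r = 0.768, 0.754 and 0.751 with *Adgre1*. With the references regressed out their r with *Gdf15* was 0.401, 0.404 and 0.417. *Trp53inp1* was most like *Ubxn7* (0.585), *Syde2* (0.585) and *Klf9* (0.581), a glucocorticoid-responsive factor, and least like *Hic1* (-0.54). *Sesn2* had the weakest neighbours, *Plin4* (0.461), 4931406P16Rik (0.457) and *Irak2* (0.45). Of the 21 nearest genes with a promoter window, 3 (14.3%) held a half-site match, *Exoc4*, *Aen* and *Irak2*, against 9.55% of all genes with a window.

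**Figure D5:**
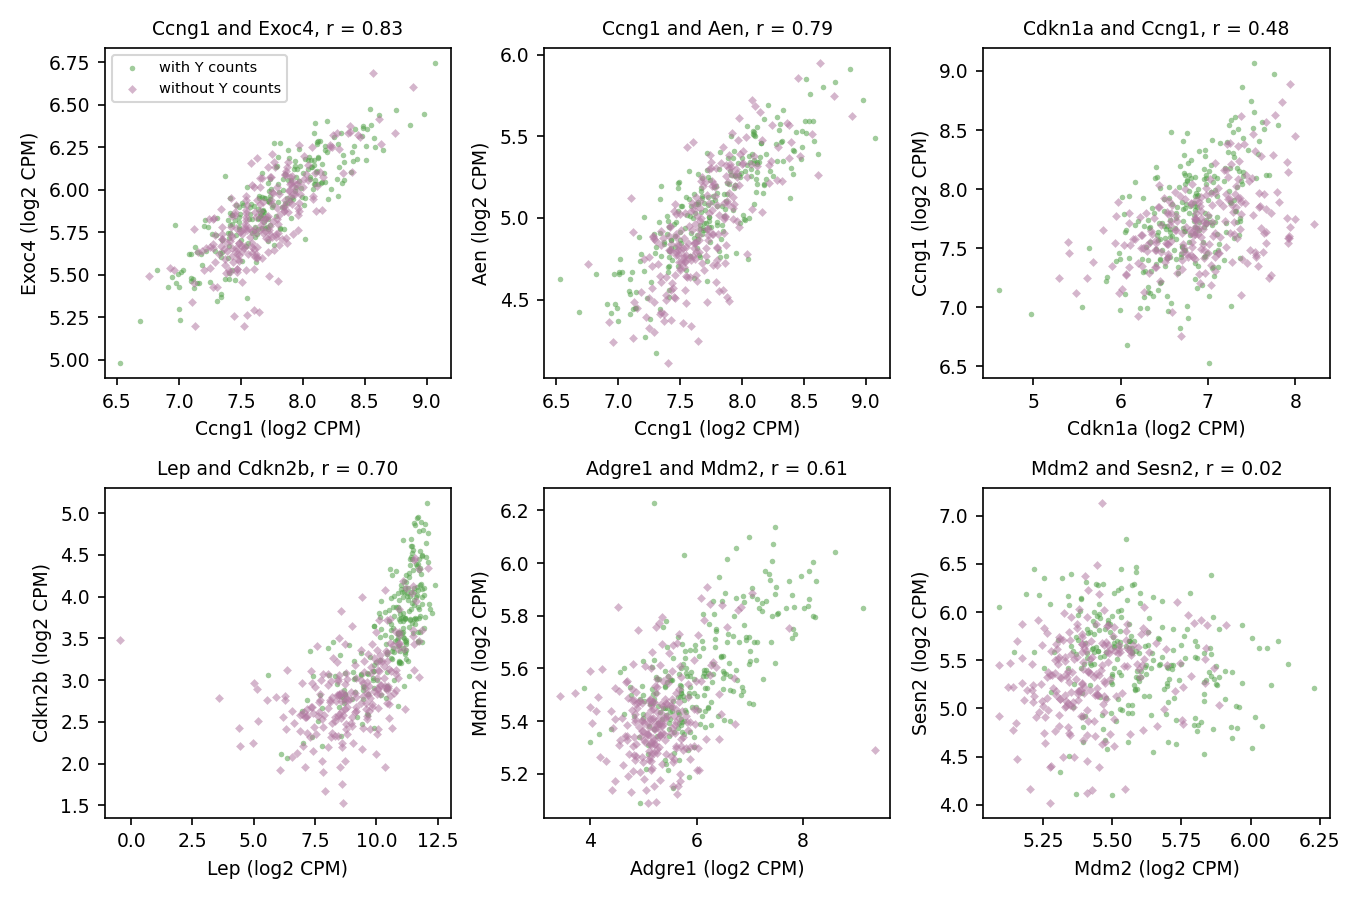
Log2 CPM of 2 transcripts in each panel, with 1 point per library, green circles for libraries with Y chromosome counts and purple diamonds for those without. Ccng1 rises with Exoc4 (r = 0.83), with Aen (0.79) and, more loosely, with Cdkn1a (0.48). Cdkn2b with Lep and Mdm2 with Adgre1 are steeper in the green points, and Sesn2 falls with Mdm2 in the green points only.

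A list of 25 other p53 targets was set beside the members. Whether variation shared with this list reflects p53 activity was not tested. With *Ccng1*, 18 of the 25 rose and 6 fell (29.6% and 40.7% of all genes), with a median r of 0.298 against -0.0253 over all genes. With *Mdm2*, 19 rose and 4 fell (36.9% and 36.4%), median r 0.375. With *Cdkn1a*, 13 rose and 3 fell (16.8% and 25.4%), median r 0.139. With *Cdkn2b* the counts were 18 and 6 (35.1% and 41.5%) and with *Gdf15* 15 and 6 (32.7% and 33.8%). With *Cdkn2c*, 4 rose and 13 fell (28.1% and 35.3%). With *Trp53inp1* the counts were 9 and 8 (25% and 27.8%) and with *Sesn2* 7 and 7 (14.9% and 23.6%), so that neither leaned to 1 side.

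Of this list, *Aen* (mean 33.2 ± 8.02 CPM, SD over all libraries), *Eda2r* (5.87 ± 2.68 CPM) and *Bax* (13 ± 2.63 CPM), an effector of apoptosis, had the highest mean r to the members. *Eda2r* had r = 0.654 with *Ccng1*. *Xpc* and *Fdxr* had the lowest mean r, and *Xpc*, a gene of DNA repair, had -0.499 with *Cdkn2b*. Of the 25 genes, 16 rose and 7 fell with *Adgre1* (34.4% and 43% of all genes), 17 and 6 with *Lep* (37.9% and 41.3%), and 17 and 5 with *Mki67* (38.8% and 39.5%). The median r of the list was 0.326 with *Adgre1*, 0.373 with *Lep* and 0.309 with *Mki67*, beside 0.375 with *Mdm2* and 0.298 with *Ccng1*.

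Among 12 genes of p53 itself and its regulators, *Trp53* (29.2 ± 4.54 CPM) had r = 0.444 with *Cdkn2b*, 0.351 with *Mdm2*, 0.213 with *Ccng1* and -0.0684 with *Cdkn1a*. *Mdm4*, the inhibitory partner of *Mdm2*, ran against it (r = -0.331) and against *Cdkn2b* (-0.563), and with *Trp53inp1* (0.471). *Hipk2* and *Atm*, kinases that act on p53, had r = 0.404 and 0.453 with *Ccng1*. Among 7 other inhibitors and pocket proteins, *Cdkn2a*, the neighbour of *Cdkn2b* that encodes p16 and p19Arf, was scarce (0.423 ± 0.35 CPM) and had r = 0.513 with *Cdkn2b* and 0.431 with *Ccng1*. *Cdkn1b* and *Cdkn1c* (p27 and p57) had r = -0.615 and -0.56 with *Cdkn2b*.

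Of 13 secreted factors tied to senescence, 10 rose and 1 fell with *Cdkn2b* (35.1% and 41.5% of all genes), 10 and 1 with *Mdm2* (36.9% and 36.4%) and 11 and 1 with *Gdf15* (32.7% and 33.8%). With *Cdkn1a* 1 rose and 3 fell, near the 16.8% and 25.4% of all genes. With *Cdkn2c* 0 rose and 10 fell (28.1% and 35.3%). The 13 genes moved with the references as well. With *Adgre1* 11 rose and 1 fell (34.4% and 43% of all genes), with *Lep* 10 and 2 (37.9% and 41.3%), and with *Mki67* 11 and 1 (38.8% and 39.5%). Their median r was 0.445 with *Adgre1*, 0.535 with *Lep* and 0.489 with *Mki67*. It was 0.408 with *Cdkn2b*, 0.436 with *Mdm2* and 0.377 with *Gdf15*. *Mmp12*, a protease of macrophages, had r = 0.699 with *Cdkn2b* and 0.107 with *Cdkn1a*, and *Ccl2* had 0.73 and 0.0452. *Igfbp3* ran against *Cdkn2b* (r = -0.465). The 15 macrophage markers are to be read against the shares of all genes given above for each member. Of them, 13 rose and 0 fell with *Cdkn2b*, 13 and 1 with *Mdm2* and 13 and 1 with *Gdf15*. All 15 fell with *Cdkn2c*. All 12 adipocyte markers rose with *Cdkn2c*. Their part in the relations of the members was not tested beyond the joint model above.

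Among 16 genes of the integrated stress response, which also acts on *Gdf15* and *Sesn2*, 10 rose and 3 fell with *Gdf15* (32.7% and 33.8% of all genes, median r of the list 0.199). With *Mdm2* 8 rose and 5 fell (36.9% and 36.4%), and with *Sesn2* 7 and 5 (14.9% and 23.6%). *Atf3* had r = 0.61 with *Gdf15* and 0.683 with *Mdm2* but -0.104 with *Sesn2*. Its r with *Adgre1* was 0.751, and with the references regressed out its r with *Gdf15* was 0.417. *Ddit3* had 0.556 with *Gdf15*, and *Atf4* 0.366. *Ddit4*, induced by glucocorticoids and stress, had 0.551 with *Trp53inp1*, 0.378 with *Cdkn1a* and 0.232 with *Sesn2*. *Ddit3*, *Atf4* and *Ddit4*, like *Trp53* above, were named after their values were seen. *Asns*, a classical ATF4 target, had -0.36 with *Gdf15* and 0.0953 with *Sesn2*. Of 20 genes of DNA replication and mitosis, 19 rose with *Cdkn2b* (35.1% of all genes), 19 with *Mdm2* (36.9%) and 19 with *Ccng1* (29.6%). With *Gdf15* 19 rose (32.7%) and with *Cdkn1a* 2 (16.8%). With *Cdkn2c* 18 fell (35.3%), with *Trp53inp1* 17 (27.8%) and with *Sesn2* 17 (23.6%). These genes rose with the references as well, 20 with *Adgre1* (34.4%), 19 with *Lep* (37.9%) and 20 with *Mki67* (38.8%).

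The labels give 2 numbers for each library that may stand for order or batch. With mouse number, 4 of the 8 members passed, where 23.7% of all genes did. *Cdkn2b* rose by 0.107 ± 0.02 on the log2 scale per 100 numbers (edgeR adjusted p = 1.69e-05) and by 0.0743 with the references in the model (adjusted p = 2.26e-05). *Mdm2* rose by 0.0293 ± 0.0061 (adjusted p = 0.000107) and *Ccng1* by 0.0365 ± 0.012 (0.015), and *Trp53inp1* fell by 0.0585 (SE 0.019, adjusted p = 0.0188). With the references in the model the slope of *Ccng1* was 0.0174 (edgeR adjusted p = 0.242), that of *Mdm2* 0.0178 (0.00408) and that of *Trp53inp1* -0.0467 (0.0274). With Xist and the Y genes in the model *Cdkn2b* had 0.0617 (edgeR adjusted p = 0.0085) and *Mdm2* 0.0172 (0.0293), while *Ccng1* had 0.0292 (0.0905) and *Trp53inp1* -0.032 (0.291). With library number 0 of the 8 passed by edgeR or by limma, where 0.267% of all genes passed by edgeR. At an unadjusted p under 0.05, 2 of the 8 passed by edgeR and 1 by limma. *Trp53inp1* had a slope on it of 0.0592 ± 0.02 per 100 numbers (adjusted p = 0.377). What the mouse number stands for is not given in the sources used here.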

How the data were processed

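Adipose RNA of 468 mice was sequenced, 1 library per mouse, all in 1 group. Per the methods of the study, the authors added a spike-in mix, built polyA libraries and aligned each read of a pair on its own to a transcriptome pooled over the founder strains. Expected counts per gene, from expectation maximization in EMASE through GBRS, were deposited by the authors, so 66.78% of values were whole within 1e-06. The versions of EMASE and GBRS are not given in any source used here. The authors also deposited log2 values from the variance-stabilizing transformation of DESeq2, used here only as an alternative. The submitters' processing notes name GRCm38. GENCODE M21 held all 23180 gene identifiers, 99.2% at the same position.

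Counts were scaled by TMM, and CPM and log2 CPM (prior count 2) were computed in edgeR 4.0.16 under R 4.3.3. Genes were kept (18380) where 50% or more of the libraries had 10 or more counts. Counts were rounded for the models. Slopes were tested with edgeR's quasi-likelihood test over all these genes, with Benjamini-Hochberg adjustment and a threshold of 0.05. Correlations were tested by two-sided permutation (100000 resamples, smallest p 1e-05) in Python 3.11.15. There were 24 relations and 28 pairs. A pair's adjusted p is the larger of both fits. The edgeR slope test was tried on counts simulated with known slopes on *Adgre1*. Total counts per library ranged from 35298813 to 137760410.

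The alternatives were DESeq2 1.42.0 (size factors, Wald test), limma 3.58.1, total counts, no filter, the deposited values, capped counts, the joint model, Xist and Y chromosome genes as covariates, clusters by Y counts, and 5 blocks of library or mouse numbers. Leaving out DO349, or DO283 and DO405, and the tests of a difference between Y count clusters were added after the data were seen. No sample column was left unused (0).

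The members and the gene lists were chosen with earlier results of these data known. Named genes were the members, the references, the 3 genes most like and the 1 least like each member among genes averaging 10 CPM or more, up to 3 genes at the top and 2 at the bottom of each list, and genes that overlap a member. Others are said to be named after their values were seen. Promoter windows came from RefSeq (GRCm38.p6).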

Additional observations from a re-analysis of the deposited data

Results flagged for a closer look

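Slopes that differed between libraries with and without Y chromosome counts are listed here as the slope with Y counts minus the slope without, each past an adjusted p of 0.05 in a test of the difference itself by edgeR. The test was added after the data were seen. For *Cdkn2b* the difference was 0.196 on *Adgre1*, 0.225 on *Lep* and 0.193 on *Mki67*, all towards a steeper rise with Y counts. For *Mdm2* it was 0.0757, 0.0394 and 0.0665 on the same references, again steeper with Y counts, and for *Ccng1* it was 0.124 on *Lep*. For *Trp53inp1* it was 0.0891 on *Lep*. Library DO349, with the highest *Trp53inp1* and the lowest *Lep*, is among those without Y counts, and without it this difference was -0.0283 ± 0.03 (edgeR adjusted p = 0.46). The other differences named in this paragraph still passed without DO349.

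*Sesn2* differed on all 3 references, by -0.225 on *Adgre1*, -0.121 on *Lep* and -0.163 on *Mki67*, with negative slopes in the libraries with Y counts and none that passed in the others. It differed also in its slope on other members, by -0.291 on *Cdkn2b*, 0.393 on *Cdkn2c*, -1.27 on *Mdm2* and -0.228 on *Gdf15*. Without DO349 these *Sesn2* differences passed as well, with -0.164 on *Lep* and 0.299 on *Cdkn2c*. The slope of *Trp53inp1* on *Cdkn2b* differed by -0.274 over all libraries and by 0.00764 without DO349 (edgeR adjusted p = 0.957). These slopes are per doubling of the other member, and *Mdm2* itself spanned 1.59-fold from the 5th to the 95th percentile of mice.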

How the results depend on the processing

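Over the alternatives, 77 of 82 counts of relations stayed within 1.5 times the reported count, 91.7% of slopes kept their direction and side of the threshold, as did 85.7% of correlations. The exceptions among the counts were the joint model, where 1 member passed on *Mki67* in place of 7, and the weakest of 5 blocks of library or mouse numbers, where 12 and 13 of the 24 relations (20 in all libraries) and 9 and 9 of the 28 pairs (19) passed, with 93 or 94 libraries a block. With total counts in place of TMM the slope was 0.00683 for *Sesn2* on *Adgre1* and 0.0235 for *Cdkn2c* on *Lep*, and r was 0.0418 for *Trp53inp1* and 0.11 for *Sesn2* with *Adgre1*, 0.107 for *Cdkn2c* and 0.116 for *Sesn2* with *Lep*, 0.0977 for *Sesn2* with *Mki67*, 0.108 for *Sesn2* with *Cdkn2b* and 0.158 for *Trp53inp1* with *Mdm2*. In the joint model the slope was 0.11 for *Trp53inp1* on *Adgre1*, 0.0566 for *Cdkn2c* on *Lep* and 0.00152 for *Trp53inp1* on *Mki67*. Without Y counts the slope on *Adgre1* was 0.0458 for *Trp53inp1* and 0.00303 for *Sesn2*, and r was 0.0333 and 0.00806 with *Adgre1*, 0.0011 for *Sesn2* with *Mki67* and 0.164 for *Trp53inp1* with *Mdm2*. With Y counts r of *Sesn2* was 0.153 with *Cdkn2c*, -0.265 with *Mdm2* and -0.21 with *Gdf15*. Given Xist and the Y genes, r of *Trp53inp1* with *Mdm2* was 0.108, and given the references it was 0.215, with -0.0714 for *Gdf15* with *Ccng1*. In the weakest block of library numbers r of *Sesn2* was 0.03 with *Adgre1*, 0.0546 with *Mki67* and -0.0161 with *Gdf15*, and *Ccng1* with *Cdkn2c* had -0.0294. In the weakest block of mouse numbers *Trp53inp1* had 0.0811 with *Adgre1*, 0.0639 with *Lep* and 0.0239 with *Mki67*, *Sesn2* had 0.0626 with *Mki67*, and *Cdkn2c* had -0.247 with *Cdkn2b* and -0.0385 with *Ccng1*. The cause was not tested. Depth limited *Gdf15* most, at a median of 69 counts.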

Other observations

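Cell type markers outside the comparisons above also differed among the members. All 10 adipocyte progenitor genes and all 7 mesothelial genes had a negative r with *Cdkn2c* (median r -0.217 and -0.0859). With *Cdkn2b*, *Mdm2* and *Gdf15* all 7 mesothelial genes had a negative r as well (median -0.331, -0.308 and -0.215). The same held with the references *Adgre1* and *Mki67* (median -0.19 and -0.225), while 2 of the 7 had a positive r with *Lep* (median -0.145). Endothelial markers had a median r of 0.172 with *Sesn2* and 0.148 with *Cdkn2b*, with 7 of 8 above 0 for each. Of 7 T cell markers, 6 had a positive r with *Trp53inp1* (median r 0.0742) and 6 with *Mdm2* (median 0.0356). With *Cdkn1a* 1 had a positive r (median -0.0833), and with *Cdkn2c* 0 (median -0.143). Over all genes tested the median r to any member lay between -0.0253 and -0.00243. Of the 18380 genes, between 8266 (*Cdkn2c*) and 9095 (*Trp53inp1*) had a positive r with a member.

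In mouse DO212, where *Gdf15* was highest, the summed adipocyte progenitor markers were 14070 CPM, above 99.4% of libraries, the DNA replication and mitosis genes summed to 257.6 CPM, above 96.2%, and the T cell markers to 2.852 CPM, above 0.214%. In DO069, the library with the lowest *Cdkn2b*, the DNA replication and mitosis genes summed to 267.7 CPM, above 96.8% of libraries, although 19 of these 20 genes rose with *Cdkn2b* over all libraries. Other sums in DO069 were low: the adipocyte markers, at 18940 CPM, were above 2.14% of libraries. Its endothelial markers were above 2.35% of libraries and its macrophage markers above 5.13%.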
